A study of Mus musculus with 6 samples.

Results

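The mitochondrial chromosome of the mouse carries 13 protein genes, 2 ribosomal RNAs (rRNAs) and 22 transfer RNAs (tRNAs). All 37 are described here, as the rows of the deposited gene table that lie on chromosome MT among 52636 genes, together with the 13 of 1488 circular RNA (circRNA) calls that lie on it. The right eyelids of 3 wild-type C57BL/6J mice had been sutured for 3 days when RNA was taken, at postnatal day 28, from their primary visual cortex, or V1. The contralateral group was left V1, opposite the sutured eye, and the ipsilateral group was right V1 of the same mice, which gives 3 libraries per group. No unsutured mouse was analysed here, so both groups share the deprivation, the strain and the age. Tissue was micro-dissected fresh, lysed in TRIzol, treated with DNase on a column and made into strand-marking libraries with a SMARTer kit for total RNA (version 2). Dissected V1 is a mixture of cells, and fewer cells of a type and less RNA per cell cannot be told apart in it.

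Mitochondrial genes are transcribed from both strands of a small circular chromosome into long precursors, which are cut mostly at the tRNAs that lie between the other genes. The heavy-strand precursor yields both rRNAs and all mRNAs except mt-Nd6, while the light-strand precursor yields mt-Nd6 and a minority of the tRNAs. The proteins are core subunits of respiratory chain complexes I, III and IV and of the ATP synthase, and the rRNAs build the mitochondrial ribosome that translates them. Brain cortex depends on this chain for most of its ATP.

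Libraries held 17849253 to 21818822 gene reads on the contralateral side and 20749614 to 32213500 on the ipsilateral side. Back-splice reads, by which circRNAs are recognised, numbered 13428 to 19326 and 14019 to 26867. Levels are CPM (counts scaled to the gene reads of a library, with TMM factors), and levels of different genes are compared per kilobase of gene length. Markers of cortical excitatory neurons summed to 5378 to 5914 CPM in contralateral and 5148 to 6295 CPM in ipsilateral V1, and no marker of the 9 cell and tissue lists was at 0. Summed markers of GABAergic interneurons ran from 223 to 275 CPM in contralateral and from 332 to 386 CPM in ipsilateral V1, without overlap. The part of that difference in any result below was not tested. P-values measure the spread between 3 libraries per hemisphere.

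The small-subunit rRNA mt-Rnr1 (chrMT:70-1024, plus strand, GRCm38) set the libraries apart before any comparison of hemispheres. Its level was 28.8, 2243 and 5801 CPM in contralateral libraries 1 to 3, against 35.9, 5034 and 14.5 CPM in ipsilateral libraries 1 to 3. Both libraries of mouse 1 were low, both of mouse 2 were high, and in mouse 3 the contralateral library was high and the ipsilateral one low, so the hemispheres overlapped widely. The highest library stood 400-fold above the lowest, and no library lay between 35.9 and 2243 CPM. By the SD of log2(CPM + 1) over the 6 libraries (4.04), mt-Rnr1 ranked 1 among 20473 tested genes. In what follows the 3 libraries with mt-Rnr1 of 100 CPM or more (contralateral 2 and 3, ipsilateral 2) are set beside the 3 below it as a description, with no test, because mt-Rnr1 itself draws that line.

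The large-subunit rRNA mt-Rnr2 (chrMT:1094-2675, plus strand) lies directly downstream of mt-Rnr1 in the same precursor, with the valine tRNA mt-Tv between them. It had 2601, 7745 and 13014 CPM in contralateral V1, against 3117, 10628 and 1156 CPM in ipsilateral V1. The same 3 libraries were high, but the lowest of them exceeded the highest of the others only 2.48-fold for mt-Rnr2, against 62.6-fold for mt-Rnr1. Per length, mt-Rnr2 was therefore 54.5, 2.08 and 1.35 times as abundant as mt-Rnr1 in contralateral V1, and 52.5, 1.27 and 48.1 times in ipsilateral V1. The ratio is formed within a library and does not depend on scaling between libraries. It was between 1.27 and 2.08 in the libraries rich in mt-Rnr1 and between 48.1 and 54.5 in the others. Transfer RNA mt-Tv, between the rRNAs, had 23 reads in all and was not tested.

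**Figure D1:**
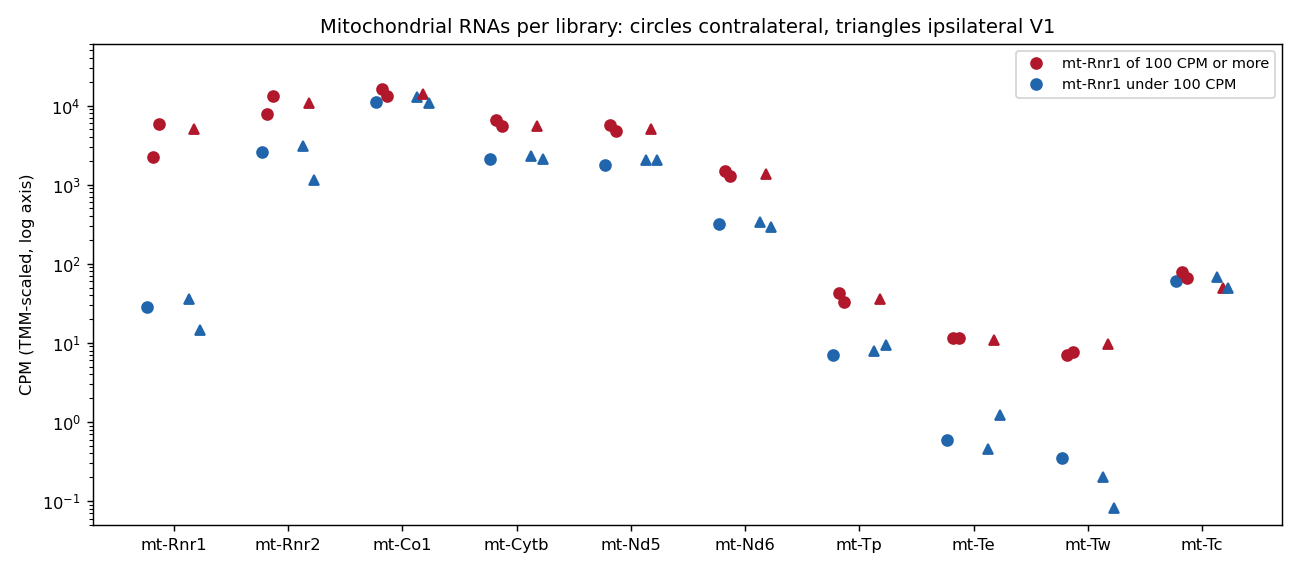
CPM (log axis) of 10 mitochondrial RNAs in each library, with contralateral V1 as circles on the left and ipsilateral V1 as triangles on the right of each gene, and red for libraries with mt-Rnr1 of 100 CPM or more. The colours lie 62.6-fold apart for mt-Rnr1 and 20.3-fold for mt-Tw, nearly touch for mt-Co1 (1.04-fold) and overlap for mt-Tc, while circles and triangles overlap for every gene shown.

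Messenger RNAs followed mt-Rnr1 in smaller steps. The cytochrome b gene mt-Cytb (chrMT:14145-15288, plus strand, complex III) had 2082, 6609 and 5531 CPM in contralateral V1, against 2322, 5539 and 2126 CPM in ipsilateral V1. Of the complex I subunits, mt-Nd5 (chrMT:11742-13565, plus strand) had 1773, 5677 and 4755 CPM in contralateral V1, against 2032, 5008 and 2071 CPM in ipsilateral V1. For both genes the libraries rich in mt-Rnr1 were all higher than the others, by at least 2.38-fold for mt-Cytb and 2.30-fold for mt-Nd5 between the nearest libraries. The corresponding gap was 2.59-fold for mt-Nd1 (chrMT:2751-3707), 2.42-fold for mt-Nd2 (chrMT:3914-4951) and 2.10-fold for mt-Nd4 (chrMT:10167-11544, with 63.6% of its length also copied in the nucleus), which are also complex I subunits on the plus strand. The widest gap of a protein gene was that of mt-Nd6 (chrMT:13552-14070, minus strand), the complex I subunit read from the opposite strand, at 3.82-fold. Its level was 319, 1473 and 1289 CPM in contralateral V1, against 337, 1345 and 290 CPM in ipsilateral V1.

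The catalytic subunit of complex IV, mt-Co1 (chrMT:5328-6872, plus strand), was the most abundant mitochondrial RNA per length (mean 8390 CPM per kb) and nearly level. It had 11219, 16173 and 13084 CPM in contralateral V1, against 12638, 13908 and 10751 CPM in ipsilateral V1. The libraries rich in mt-Rnr1 were again the higher ones, by 1.04-fold between the nearest of them. Per length, mt-Co1 stood above the median of mt-Nd1, mt-Nd2, mt-Nd4, mt-Nd5 and mt-Cytb by 6.69, 2.65 and 2.47 times in contralateral V1 and by 6.72, 2.59 and 4.91 times in ipsilateral V1. Against the same median, mt-Nd6 stood at 56.7%, 71.8% and 72.5% in contralateral V1 and at 53.4%, 74.5% and 39.5% in ipsilateral V1. Both ratios separate the same libraries as mt-Rnr1 does, and neither depends on scaling between libraries. The strand setting of the counts is not given in the sources used here, so reads of mt-Nd6 and of heavy-strand RNA opposite it cannot be told apart. The same limit holds for the tRNAs on the minus strand that are described below.

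Transfer RNAs are only 59 to 75 bases long and took 0.0106% to 0.0208% of gene reads. No read was assigned to the tRNAs for phenylalanine, aspartate and lysine (mt-Tf, mt-Td and mt-Tk) in any library, which allows a level of up to 0.0931 to 0.168 CPM per library from counting error alone. Of these, mt-Td and mt-Tk lie inside the copied stretch described below, where counts depend on how reads with several matching places were treated. The limit does not cover that. The cysteine tRNA mt-Tc was the most abundant, with 60.9, 78.4 and 65.6 CPM in contralateral V1 and 68.8, 49.7 and 49.4 CPM in ipsilateral V1, and it did not follow mt-Rnr1. The proline tRNA mt-Tp did, with 6.97, 43.0 and 33.2 CPM in contralateral V1 and 7.84, 36.1 and 9.27 CPM in ipsilateral V1. The glutamate tRNA mt-Te had 0.597, 11.6 and 11.6 CPM in contralateral V1, against 0.449, 10.8 and 1.23 CPM in ipsilateral V1, a gap of 8.80-fold. Widest after mt-Rnr1 was the tryptophan tRNA mt-Tw, named after its values were seen, with 0.348, 7.07 and 7.76 CPM in contralateral V1 and 0.200, 9.56 and 0.0820 CPM in ipsilateral V1, which is 7, 132 and 168 reads against 4, 295 and 2. The sequences of these tRNAs (RNA strand written as DNA, 5′ to 3′, from GENCODE M21 on GRCm38) are given for the most abundant of them and for those with the widest gaps.
mt-Tc, chrMT:5192-5257, minus strand: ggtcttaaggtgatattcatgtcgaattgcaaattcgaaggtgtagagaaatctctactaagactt
mt-Tw, chrMT:4950-5016, plus strand: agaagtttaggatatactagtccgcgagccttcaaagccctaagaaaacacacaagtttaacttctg
mt-Te, chrMT:14071-14139, minus strand: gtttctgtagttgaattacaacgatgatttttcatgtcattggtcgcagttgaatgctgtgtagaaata
mt-Tp, chrMT:15356-15422, minus strand: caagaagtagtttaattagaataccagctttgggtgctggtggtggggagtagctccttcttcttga

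Of the 30 tested members other than mt-Rnr1, 21 (70%, against 6.88% of all tested genes) were higher without overlap in the libraries rich in mt-Rnr1, and none was lower, against 4.62% of all tested genes. For 3 of them, mt-Tw and the alanine and threonine tRNAs mt-Ta and mt-Tt, this is not a separate observation, because they reached the filter's 0.470 CPM only in those libraries (mt-Tt is named here after its values were seen). Of the 27 other members 18 (66.7%) were higher, against 6.55% of all genes that did not pass in that way alone. These 18 comprised mt-Rnr2, all 5 protein genes without a close nuclear copy, both with close copies over part of their length, 2 of the 5 tested ones inside a copied block described below (mt-Atp6 and mt-Nd3), and 8 of 14 tRNAs. A close copy is an annotated one of 99% identity or more. The light-strand tRNAs that overlapped, mt-Tn, mt-Tc and mt-Ty for asparagine, cysteine and tyrosine, lie next to each other. They were 3 of 7 tested tRNAs on the minus strand, and mt-Ta, beside mt-Tn on that strand, was among the higher ones. On the plus strand 3 of 10 tested tRNAs overlapped. As members come from shared precursors, the members are not independent of each other.

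The share of all 37 genes in gene reads was 2.23%, 5.65% and 5.51% in contralateral V1 and 2.45%, 5.16% and 2.17% in ipsilateral V1, with 95% Wilson intervals no wider than ± 0.0107 points. Means were 4.46% ± 1.94 in contralateral and 3.26% ± 1.65 in ipsilateral V1 (SD, n = 3 each), a difference of 1.20 points that is smaller than the SD of either side. Both sides come from the same mice, so these SDs do not measure the spread of the difference within mice. Contralateral and ipsilateral shares were 2.23% and 2.45% in mouse 1, 5.65% and 5.16% in mouse 2, and 5.51% and 2.17% in mouse 3. Leaving out 1 library at a time moved the difference of means between 0.603 (without contralateral 2) and 2.32 points (without contralateral 1). The 13 protein genes alone took 1.95%, 4.59% and 3.62% in contralateral V1 and 2.14%, 3.65% and 2.04% in ipsilateral V1. Here too the libraries rich in mt-Rnr1 were the high ones. With both rRNAs left out of members and of gene reads, the mitochondrial share was 1.97%, 4.66% and 3.71% in contralateral V1 and 2.16%, 3.72% and 2.05% in ipsilateral V1.

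**Figure D2:**
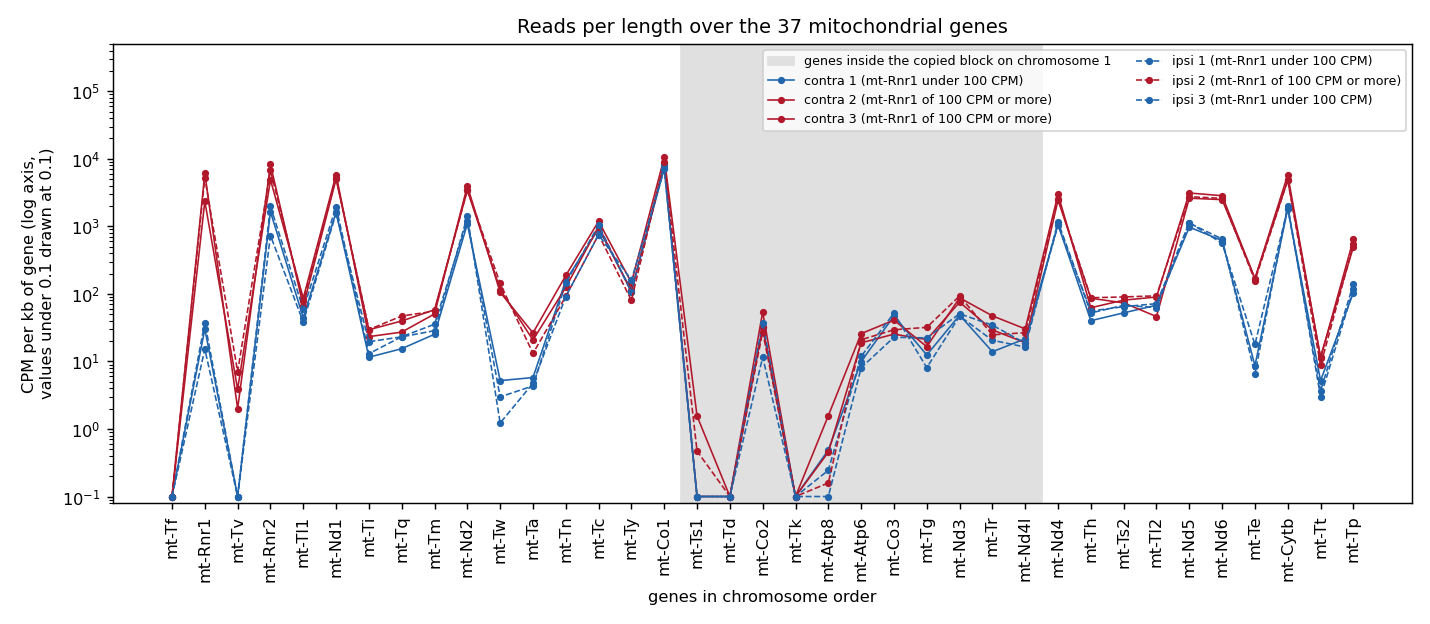
CPM per kb of gene (log axis, values under 0.1 drawn at 0.1) of the 37 mitochondrial genes in chromosome order, one line per library, solid for contralateral and dashed for ipsilateral V1, red for libraries with mt-Rnr1 of 100 CPM or more. The grey area marks the genes that lie wholly in the stretch copied on chromosome 1, whose protein genes averaged 0.487 to 67.0 CPM per kb, against 1623 to 8390 CPM per kb for the others, of which mt-Co1 and mt-Nd4 lie partly in it.

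Reads per length were uneven along the chromosome, and the low stretch is one that also exists as a copy in the nuclear genome. Over the 6 libraries, mt-Co2, mt-Atp8, mt-Atp6, mt-Co3, mt-Nd3 and mt-Nd4l averaged 0.487 to 67.0 CPM per kb, while the 7 other protein genes averaged 1623 to 8390 CPM per kb. These genes code for complex IV subunits (mt-Co2, mt-Co3), ATP synthase subunits (mt-Atp8, mt-Atp6) and complex I subunits (mt-Nd3, mt-Nd4l). All of them lie wholly in chrMT:6380-11042, with 5 tRNAs, mt-Td and mt-Tk among them. That stretch matches 7 annotated pseudogenes at chr1:24611535-24616197 (minus strand, GRCm38, 4663 bases) in the same order and, to within 1 base, the same spacing. mt-Co2 was identical to Gm28661 over 99.6% of its length, mt-Atp6 to Gm10925 over 99.6%, mt-Co3 to Gm28437 over 99.9% and mt-Nd4l to Gm10222 over 98.99%. The block also takes in the last 31.3% of mt-Co1 (Gm29216, 483 bases) and the first 63.6% of mt-Nd4 (Gm28439, 876 bases), at 99% identity or more. At that identity mt-Nd1, mt-Nd2, mt-Nd5, mt-Nd6, mt-Cytb and both rRNAs had no copy among annotated transcripts. Less alike, Gm13339 matched 49.1% of mt-Nd2 (96.7% identity) and Gm4076 52.3% of mt-Nd5 (95.2%). Gm13340 matched mt-Co1 (97.6%) and Gm13341 matched mt-Co2 (95.9%), each over the whole gene. Genomic copies outside annotated transcripts were not searched.

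Over their aligned lengths, only 2 single bases separated the annotated copies of the block from the mitochondrial genes they match. These are T3C between mt-Nd3 and Gm28438 and A1066T between mt-Co1 and Gm29216, counted from 1 at the 5′ end of the mitochondrial gene, whose base is given before the position. The stretches of 30 bases around them, with the differing base in capitals, show how little sequence tells gene and copy apart.
mt-Nd3, chrMT:9459-9488, plus strand: atTaacctgtacactgttatcttcattaat
Gm28438, chr1:24613090-24613119, minus strand: atCaacctgtacactgttatcttcattaat
mt-Co1, chrMT:6390-6419, plus strand: ggaAttgttttatccaactcatcccttgac
Gm29216, chr1:24616159-24616188, minus strand: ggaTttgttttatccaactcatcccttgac

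Counts of the block's genes and of their copies were close for some pairs and far apart for others. The complex IV gene mt-Co2 had 21.8, 36.8 and 22.3 CPM in contralateral V1 and 25.7, 18.8 and 7.91 CPM in ipsilateral V1, and its copy Gm28661 had 22.1, 39.0 and 24.2 CPM in contralateral V1 and 30.5, 28.6 and 14.1 CPM in ipsilateral V1. Likewise mt-Atp6 had 6.77, 17.6 and 12.8 CPM and Gm10925 had 9.31, 27.7 and 19.9 CPM in contralateral V1, and in ipsilateral V1 mt-Atp6 had 8.09, 14.3 and 5.49 CPM and Gm10925 10.9, 24.9 and 5.13 CPM. Both mt-Atp6 and Gm10925 were higher without overlap in the libraries rich in mt-Rnr1, and mt-Co2 and Gm28661 were not. In contrast, the complex I gene mt-Nd3 had 339, 568 and 568 reads in contralateral V1 and 327, 999 and 431 reads in ipsilateral V1, while Gm28438 had 55, 26 and 22 reads and 52, 39 and 25 reads. The ATP synthase gene mt-Atp8, of which 21.1% lies in an annotated copy (Gm10925), had 2, 6 and 2 reads in contralateral V1 and 1, 1 and 0 reads in ipsilateral V1 and was not tested. Counts of genes with near-identical copies depend on how reads with several matching places were treated, which is not given in the sources used here, so levels inside the block, and those of mt-Co1 and mt-Nd4 as far as they lie in it, are uncertain. The 6 protein genes of the block held 0.157% to 0.398% of mitochondrial reads.

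Between the hemispheres, no mitochondrial gene passed the test. Of the 37 members 31 had enough reads to be tested, 3 tRNAs had none, and mt-Atp8, mt-Tv and mt-Ts1 had too few. With edgeR's quasi-likelihood test and Benjamini-Hochberg adjustment over all 20473 genes, 0 of 31 reached an adjusted p under 0.05, against 0.127% of all genes (26), and the adjusted p ran from 0.795 to 0.996. At an unadjusted p under 0.05 there was 1 member, against 6.15% of all genes, and DESeq2 gave 0 with an adjusted p under 0.05. That member was mt-Tn, the asparagine tRNA, with 11.2, 13.3 and 8.86 CPM in contralateral V1 and 10.3, 6.51 and 6.48 CPM in ipsilateral V1 (log2 fold change 0.52, SE 0.23, adjusted p = 0.795 in edgeR). No tested member had hemispheres without overlap, against 13% of all tested genes. With the mouse as a block, 0 of 31 passed, against 0.894% of all genes, and the lowest adjusted p was 0.125 (mt-Co2). At an unadjusted p under 0.05, 10 of 31 were called with the block, all higher in contralateral V1, against 13.2% of all genes in either direction and 6.3% higher. They were mt-Co2, mt-Atp6, mt-Nd4, mt-Nd6, mt-Cytb and the tRNAs mt-Ta, mt-Tn, mt-Tc, mt-Te and mt-Tp.

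The members' log2 fold changes, contralateral over ipsilateral, lay between -0.35 (the glycine tRNA mt-Tg) and 1.18 (the alanine tRNA mt-Ta), both named after their values were seen. Their median was 0.41 with 26 of 31 above 0, beside a median of 0.03 over all tested genes. Leaving out 1 library at a time, the members' median ran from 0.10 (without contralateral 2) to 0.52 (without ipsilateral 2). For mt-Rnr1 the log2 fold change was 0.67 with an SE of 1.61 (adjusted p = 0.959), and for mt-Rnr2 it was 0.65 with an SE of 0.65 (adjusted p = 0.885). Protein genes without a close copy had 0.42 to 0.64, from mt-Nd5 (SE 0.40) to mt-Nd6 (SE 0.57), and mt-Co1 had 0.12 (SE 0.19). With single libraries left out, the log2 fold change of mt-Rnr2 ran from 0.055 to 1.86, that of mt-Nd5 from 0.10 to 0.98 and that of mt-Nd6 from 0.28 to 1.71. Inside the block the values ran from 0.13 (mt-Co3) to 0.63 (mt-Co2). Without a filter on low counts, every gene with a read was tested, which leaves out the 3 tRNAs without reads. In that fit 109 of all genes passed in edgeR, 3 of them members. The share of all genes tested in that fit is not given here, so the 3 are not set against a background. For all 3 the levels of the hemispheres overlapped. These members were mt-Rnr1 (adjusted p = 0.0187), mt-Nd6 (adjusted p = 0.0211) and mt-Rnr2 (adjusted p = 0.0401), with log2 fold changes of 0.65, 0.62 and 0.63. Over the alternatives tried, the adjusted p of mt-Rnr1 ran from 0.0187 to 1.00, and the cause of the passes without a filter was not tested.

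Taken mouse by mouse, the median over members with at least 10 reads in each library of the mouse, which leaves out 10 members in mouse 1, 6 in mouse 2 and 9 in mouse 3, was -0.17 on the log2 scale in mouse 1, with 6 of 27 above 0. In mouse 2 it was 0.18 with 20 of 31 above 0, and in mouse 3 it was 0.78 with 24 of 28 above 0. The log2 ratio of mt-Rnr1 reached 8.64 in mouse 3, the mouse whose hemispheres fall on different sides of the mt-Rnr1 line. Within the 3 libraries below that line the fitted median over members was -0.11, and within the 3 above it 0.05, each with a hemisphere represented by a single library that is assumed to vary like the others. Leaving out contralateral 3 turned the log2 fold change of mt-Rnr1 to -0.58, and leaving out ipsilateral 2 moved it to 6.74.

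**Figure D3:**
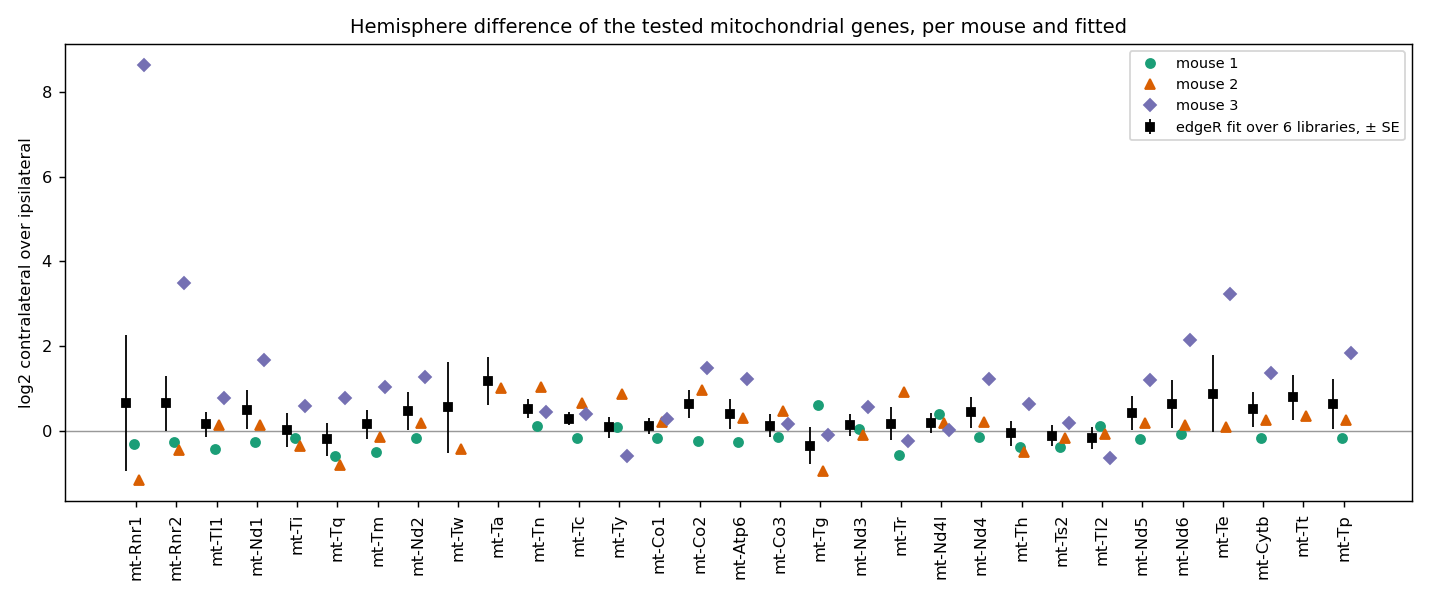
Log2 of contralateral over ipsilateral level for the 31 tested mitochondrial genes in chromosome order, as the edgeR fit over 6 libraries (black, bars ± SE) and per mouse (coloured, pairs with too few reads left out). Mouse 3 lies highest for most genes, up to 8.64 for mt-Rnr1, while mouse 1 has 6 of 27 above 0.

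Nuclear ribosomal loci were examined beside mt-Rnr1, since total RNA kits of this kind include a step against ribosomal sequence. Of 359 loci of cytosolic rRNA and overlapping genes, 19 had enough reads, and 5 of these (26.3%, against 6.88% of all genes) were higher without overlap in the libraries rich in mt-Rnr1, of which 1, n-R5s95, reached the filter only through those libraries. They were Lars2 and CT010467.1, n-R5s188, n-R5s171 and n-R5s95, the last 4 annotated as rRNA and named after their values were seen. Without n-R5s95, 4 of 18 (22.2%) were higher, against 6.55% of all genes that did not pass in that way alone. The n-R5s loci had few reads, at 0.0498 to 1.38 CPM, and narrow gaps of 1.43 to 1.74-fold. Lars2, the gene of the mitochondrial leucyl-tRNA synthetase, is on this list as an overlapping gene. Whether its reads come from its mRNA or from ribosomal sequence cannot be told from the counts. It had 26.0, 297 and 328 CPM in contralateral V1 and 27.3, 264 and 28.045 CPM in ipsilateral V1. CT010467.1 (chr17:39846353-39848827) had 41.4, 718 and 979 CPM in contralateral V1 and 70.9, 837 and 45.9 CPM in ipsilateral V1. Lars2 and CT010467.1 separate the libraries as mt-Rnr1 does, by 9.42-fold and 10.1-fold. Gm26917, the most abundant of the list, did not: it had 28426, 15042 and 9648 CPM in contralateral V1 and 23924, 12463 and 9595 CPM in ipsilateral V1.

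**Figure D4:**
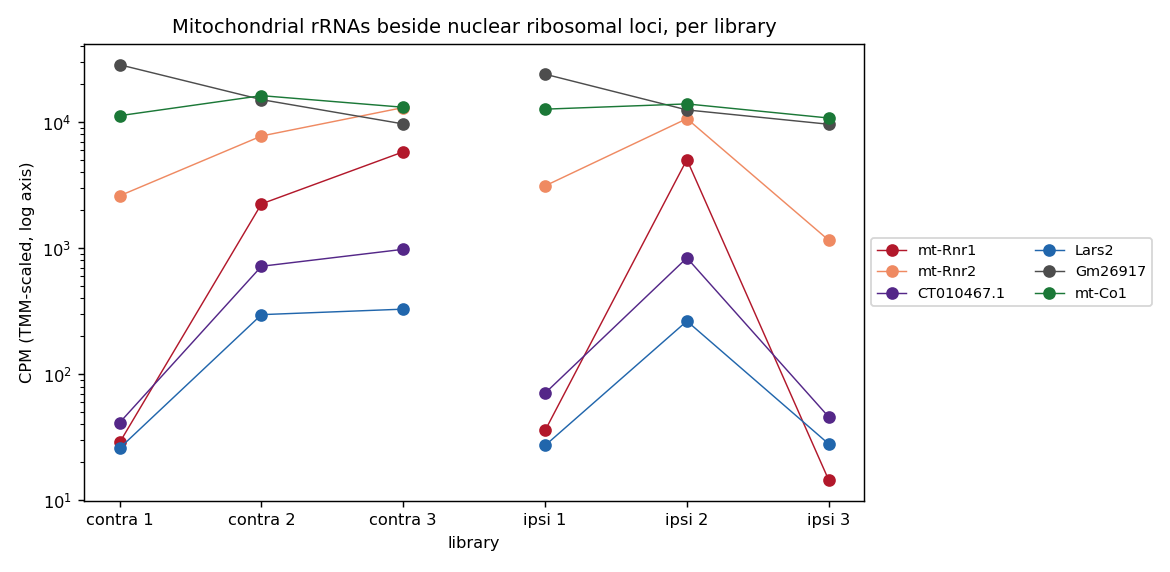
CPM (log axis) of mt-Rnr1, mt-Rnr2, mt-Co1, the nuclear loci CT010467.1 and Lars2, and Gm26917, in contralateral libraries on the left and ipsilateral libraries on the right, with lines that only join libraries of a hemisphere. CT010467.1 and Lars2 are high in contralateral 2 and 3 and ipsilateral 2, as mt-Rnr1 is, while mt-Co1 stays between 10751 and 16173 CPM.

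Gm42418 and AY036118, which overlap the same ribosomal locus, had no read in any library, and Gm26870 had at most 2. Among all nuclear genes tested, the widest gaps between the libraries rich in mt-Rnr1 and the others were those of CT010467.1, Gm23935 (10.1-fold), Lars2, Gm24270 (7.26-fold), Mir6236 (6.93-fold) and Gm14412 (5.16-fold), of which all but Lars2 were named after their values were seen. Gm23935, annotated as a miRNA, had 64.4, 1078 and 2089 CPM in contralateral V1 and 107, 2474 and 105 CPM in ipsilateral V1. The part of these loci, or of ribosomal depletion, in the mitochondrial levels was not tested. No cytosolic rRNA locus passed the hemisphere test (0 of 19, median log2 fold change 0.47).

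Of the other abundant non-coding RNAs of total RNA, 0 of 9 were higher and 0 of 9 lower without overlap in the libraries rich in mt-Rnr1, against 6.88% and 4.62% of all genes, which for 9 genes sets nothing apart. Between hemispheres 0 of 9 passed the hemisphere test (median log2 fold change 0.25). Rn7sk, a regulator of transcription elongation, had 5639, 4724 and 3844 CPM in contralateral V1 and 5605, 3272 and 2099 CPM in ipsilateral V1. Rpph1, the RNA of nuclear RNase P, had 802, 463 and 307 CPM in contralateral V1 and 763, 394 and 164 CPM in ipsilateral V1. Both were highest in the libraries of mouse 1. The long nuclear RNA Malat1 had 8861, 12763 and 10159 CPM in contralateral V1 and 8972, 9768 and 10830 CPM in ipsilateral V1, and Neat1 had 24.6 to 30.8 and 22.2 to 35.3 CPM. The neuronal long non-coding RNAs Meg3, Rian, Miat and Snhg11 had log2 fold changes of 0.39, 0.04, 0.42 and 0.33. Rn7s2, a signal recognition particle RNA, had 0.323 to 1.99 CPM in contralateral and 0.205 to 2.00 CPM in ipsilateral V1, while Terc, Rmrp, Rny1, Rny3 and Rn7s1 had too few reads for a test.

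Nuclear genes that make and process mitochondrial RNA separated the libraries about as often as other genes did. Of 35 genes for mitochondrial transcription, processing and decay, all tested, 1 was higher and 1 lower in the libraries rich in mt-Rnr1, 2.86% each, against 6.88% and 4.62% of all genes. They were Mterf4, which had 9.16, 9.21 and 11.1 CPM in contralateral V1 and 7.44, 10.9 and 9.18 CPM in ipsilateral V1 and was named after its values were seen, and Tfam. Tfam, the factor that packs the chromosome and starts its transcription, had 26.0, 22.8 and 23.2 CPM in contralateral V1 and 28.4, 25.1 and 31.2 CPM in ipsilateral V1. None of the 35 passed the hemisphere test, and those with the smallest p were Mterf1b (log2 fold change 0.81, adjusted p = 0.765), the poly(A) polymerase Mtpap (-0.29, adjusted p = 0.805), Fastkd3 (-0.33) and Tfam (-0.24). Of 20 genes for modification of the mitochondrial rRNAs and assembly of their ribosome, 0 were higher and 2 (10%) lower in the libraries rich in mt-Rnr1, against 6.88% and 4.62% of all genes. These were Noa1 and Mrm1, named after their values were seen, and Mrm1, a methyltransferase of the large rRNA, had 7.42, 6.64 and 5.31 CPM in contralateral V1 and 7.14, 5.48 and 6.64 CPM in ipsilateral V1. None of the 20 passed between hemispheres in edgeR, and the smallest p belonged to the pseudouridine synthase Trub2 (log2 fold change 0.35, adjusted p = 0.751), Mettl17 (0.30), Rpusd3 (0.47) and Mtg2 (0.31).

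The protein partners of the mitochondrial genes leaned the other way. Of 77 tested genes for mitoribosomal proteins, 15 (19.5%) were lower and 2 higher in the libraries rich in mt-Rnr1, and of 81 tested nuclear genes for respiratory chain subunits 21 (25.9%) were lower and 2 higher, against 4.62% of all genes lower and 6.88% higher. The gaps were narrow beside those of the rRNAs. Mrps6, of the small mitoribosomal subunit, had 6.87, 4.23 and 5.22 CPM in contralateral V1 and 8.04, 6.12 and 8.94 CPM in ipsilateral V1. None of these genes passed the hemisphere test, with median log2 fold changes of -0.08 and -0.16. The smallest p among respiratory chain genes were those of Atp5c1 (log2 fold change -0.31, adjusted p = 0.771), Cox7a2 (-0.31), Cox6b1 (-0.27) and Uqcrh (-0.24). Among mitoribosomal genes they were those of Mrpl18 (-0.43, adjusted p = 0.782), Mrps6 (-0.50), Mrpl21 (0.39) and Mrpl17 (-0.25). The annotated nuclear copies of mitochondrial DNA gave 0 of 9 between hemispheres, against 0.127% of all genes (median log2 fold change 0.12). In the libraries rich in mt-Rnr1, 1 of 9, Gm10925, was higher without overlap, against 6.88% of all genes, which for 9 genes sets nothing apart. Gm10925 is identical to mt-Atp6 over 678 bases, so its order is not separate from that of mt-Atp6.

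A circRNA is recognised by reads in which a downstream position is joined to an upstream one, and nuclear circRNAs form when an exon's end is spliced back to the start of the same or an earlier exon. Mitochondrial genes have no introns. The 13 mitochondrial calls lay in mt-Rnr2 (4 calls), mt-Co1 (3), mt-Nd2 (2), mt-Nd4, mt-Nd6, mt-Cytb and across mt-Nd4l and mt-Nd4 (1 each). For 6 of them each join is printed as the 20 bases before and the 20 after it, read 5′ to 3′ on the strand of the gene (GENCODE M21, GRCm38), with the repeat that occurs at both ends of the call in capitals. They are the most abundant call, the pair in mt-Rnr2 with nearly equal counts, a call in mt-Nd2 that followed mt-Rnr1, and the calls in mt-Nd6 and mt-Cytb, which were named after their values were seen.
mt-Co1, chrMT:5599-5850, plus strand: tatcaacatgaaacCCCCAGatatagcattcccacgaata
mt-Rnr2, chrMT:1703-1801, plus strand: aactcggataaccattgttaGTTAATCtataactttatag
mt-Rnr2, chrMT:1710-1808, plus strand: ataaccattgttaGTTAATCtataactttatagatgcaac
mt-Nd2, chrMT:4425-4571, plus strand: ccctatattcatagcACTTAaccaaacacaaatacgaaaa
mt-Nd6, chrMT:13676-13877, minus strand: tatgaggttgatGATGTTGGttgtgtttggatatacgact
mt-Cytb, chrMT:14997-15227, plus strand: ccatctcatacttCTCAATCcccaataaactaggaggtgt

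The repeat can be read at both ends of the linear RNA. For the most abundant call, in mt-Co1, the sequence around its start and the sequence around its end share 6 bases, and the join carries them once.
around the start: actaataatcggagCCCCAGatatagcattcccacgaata
around the end: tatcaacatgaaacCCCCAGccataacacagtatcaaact
All 13 calls had such a direct repeat of 3 to 8 bases (median 6), and in 8 of them it was 6 bases or longer. Of mitochondrial position pairs with the span of the call and no unassembled base between them, 0.0608% to 8.59% had a repeat at least as long. These pairs include the call's own repeat, once for each point at which it can be joined. The lowest share holds nothing else, so the shares are not a background rate. In 12 of 13 calls the join was placed with the repeat wholly before it. Because of the repeat, the exact point of joining within it cannot be told from a read, and at none of the equivalent points did the flanking bases AG and GT of a nuclear back-splice occur (0 of 13). The calls at 1703 to 1801 and at 1710 to 1808 in mt-Rnr2 lie 7 bases apart with a repeat of 7 bases, so their junction sequences are the same and the 13 calls hold 12 distinct junctions.

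By the other features in the deposited table, too, the mitochondrial calls stood apart as a description. Their spans were 99 to 291 bases (median 192), against a median of 13650 bases over the other 1475 calls, of which 2.37% were under 300 bases. All 13 carried the junction type 0, as did 3.39% of the others, while 95.9% of the others carried type 1. The meaning of these codes is not given in the sources used here. None of the 13 had an end at the bound of an annotated gene, whereas 1301 of 1387 nuclear exon-to-exon calls (93.8%) had both ends at annotated exon bounds. In abundance they were ordinary, with 2.33 to 41.8 reads on average per library (median 6.67), against a median of 5.83 for the others.

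The most abundant mitochondrial call, in mt-Co1 at 5599 to 5850, had 19, 25 and 52 back-splice reads in contralateral V1 and 39, 65 and 51 in ipsilateral V1. The pair in mt-Rnr2 had 14 and 15, 27 and 27, and 10 and 10 reads in contralateral libraries 1 to 3, and 41 and 41, 16 and 17, and 21 and 25 reads in ipsilateral libraries 1 to 3. Their host mt-Rnr2 was lowest in ipsilateral 3, where the call at 1703 to 1801 reached 745 back-splice reads per 1000000 host reads, and highest in contralateral 3, where it stood at 35.5. The second call in mt-Nd2, at 4570 to 4755, had 12, 9 and 23 reads in contralateral V1 and 2, 15 and 22 in ipsilateral V1.

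**Figure D5:**
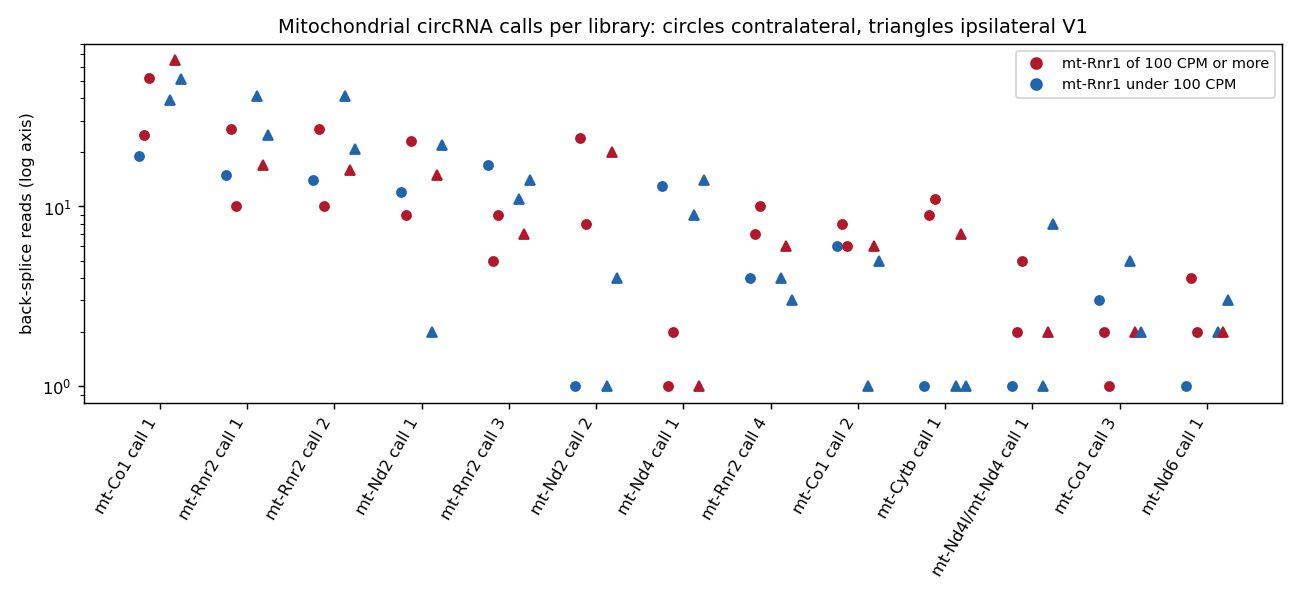
Back-splice reads (log axis) of the 13 mitochondrial circRNA calls in each library, ordered by mean reads, with contralateral V1 as circles on the left and ipsilateral V1 as triangles on the right of each call, and red for libraries with mt-Rnr1 of 100 CPM or more. Few calls separate the colours, among them the second call drawn for mt-Nd2 (1, 24 and 8 contralateral and 1, 20 and 4 ipsilateral reads) and that in mt-Cytb.

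Most calls did not follow the level of mt-Rnr1. The call in mt-Nd2 at 4425 to 4571 (1, 24 and 8 reads in contralateral V1, 1, 20 and 4 in ipsilateral V1) and the call in mt-Cytb (1, 9 and 11 reads in contralateral V1, 1, 7 and 1 in ipsilateral V1) were higher without overlap in the libraries rich in mt-Rnr1, as were 8.79% of all tested circRNAs. The call in mt-Cytb passed the filter only through those libraries. The calls in mt-Rnr2 at 1692 to 1883 (17, 5 and 9 reads in contralateral V1, 11, 7 and 14 in ipsilateral V1) and in mt-Nd4 at 10689 to 10916 (13, 1 and 2 reads in contralateral V1, 9, 1 and 14 in ipsilateral V1) were lower there, as were 6.13% of all tested circRNAs. Overlap was judged on scaled levels, and most of these counts are too small to set apart libraries beyond counting error. Together the 13 calls held 0.797%, 0.866% and 0.771% of back-splice reads in contralateral V1 and 1.13%, 0.618% and 0.952% in ipsilateral V1. Wilson intervals overlapped for most pairs (for example 0.660% to 0.962% in contralateral 1 and 0.821% to 1.10% in ipsilateral 3). These sums and intervals count the shared junction in mt-Rnr2 under both of its calls. Counted once, it left 92, 123 and 139 reads in contralateral V1 instead of 107, 150 and 149. In ipsilateral V1 it left 117, 149 and 148 reads instead of 158, 166 and 173. Per 1000000 mitochondrial gene reads the 13 calls numbered 238, 149 and 124 in contralateral V1 and 310, 99.8 and 338 in ipsilateral V1, fewest in the 3 libraries rich in mt-Rnr1. That denominator includes mt-Rnr1 and was 1008767 to 1663585 reads in those libraries, against 449056 to 511611 in the others. The order is therefore not a separate observation about the calls. Back-splice reads of nuclear circRNAs ran from 675 to 1019 per 1000000 nuclear gene reads in contralateral V1 and from 685 to 874 in ipsilateral V1.

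No mitochondrial circRNA call passed between the hemispheres. All 13 were tested with edgeR's quasi-likelihood test among 1468 circRNAs, of which 0% passed, and every adjusted p of the 13 was 0.999. At an unadjusted p under 0.05 there were 0 of 13, against 3.54% of all circRNAs, and DESeq2 gave 0 of 13. Log2 fold changes, contralateral over ipsilateral, ran from -0.60 (the call in mt-Rnr2 at 1710 to 1808, SE 0.40) to 1.41 (mt-Cytb, SE 0.76), with a median of 0.13 and 7 above 0, beside a median of -0.02 over all circRNAs. For the most abundant call, in mt-Co1, the log2 fold change was -0.54 with an SE of 0.32. Scaled hemispheres did not overlap for the call in mt-Rnr2 at 1654 to 1836 (4, 7 and 10 reads in contralateral V1, 4, 6 and 3 in ipsilateral V1) and for that in mt-Co1 at 5596 to 5775, named after its values were seen (6, 8 and 6 reads in contralateral V1, 1, 6 and 5 in ipsilateral V1), against 8.65% of all circRNAs. With counts this low, only large differences could have been detected.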

How the data were processed

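Total RNA libraries of 3 contralateral and 3 ipsilateral V1 samples were analysed from tables that the authors deposited. The deposited gene table holds raw read counts and the deposited circRNA table raw counts of back-splice reads, per the file headers. Normalized circRNA signal values, deposited per library, served only as an alternative (1488 circRNAs matched, 13 of them mitochondrial). Per the submitters' processing notes, the tools were limma, DESeq2, featureCounts and HISAT2 and the build GRCm38, without versions or roles. The circRNA caller, the strand setting and the treatment of multiply matching reads: not given in the sources used here. Columns of other samples numbered 0. Symbols and sequences came from GENCODE M21 (GRCm38; 52489 of 52636 gene IDs, all 37 mitochondrial genes with equal bounds). The mitochondrial sequence was assembled from its transcripts.

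Hemispheres were compared with edgeR 4.0.16 (R 4.3.3; quasi-likelihood test, TMM, filterByExpr at 10 reads per gene and 15 in all; circRNAs with at least 2 reads in 3 libraries), Benjamini-Hochberg adjustment and a threshold of 0.05, and tested on simulated data. Both libraries of a mouse come from the same animal per the labels, and their deviations from group means correlated at 0.555, 0.117 and 0.256 in mice 1 to 3. The highest correlation of the same contralateral library with another mouse's ipsilateral library was -0.276, 0.184 and 0.227, which for mouse 2 exceeds that of its own pair. Alternatives were DESeq2 1.42.0, limma 3.58.1, no filter, the mouse as a block, nuclear library sizes, each library left out and fits within the libraries on either side of 100 CPM of mt-Rnr1. Nuclear copies were searched with BLAST+ 2.17.0 among annotated transcripts (identity of at least 90%). Intervals (95%) and limits for 0 reads (3 counts) cover counting error only.

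Named were both rRNAs, the 13 protein genes, the 8 tRNAs with the highest mean CPM, the 8 circRNA calls with the highest mean count, per list the 4 genes with the smallest p, and the written-out cytosolic rRNA and non-coding RNA genes. Members, lists and the 100 CPM line were chosen with earlier results of these data known.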

Additional observations from a re-analysis of the deposited data

How the results depend on the processing

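The count of mitochondrial genes that passed (0) was 3 without the low-count filter and stayed 0 in the other fits, the replicate block included, and mitochondrial circRNA calls stayed at 0 in every fit. Over all genes the count of 26 became 89 with DESeq2, 109 with no filter and 183 with the replicate block. It lay between 0 (without contralateral 2) and 35 leaving out each library, with 17 without contralateral 3 and 16 without ipsilateral 2. Over all circRNAs it lay between 0 and 2 (without ipsilateral 2). The block changed no mitochondrial call at an adjusted p under 0.05. At an unadjusted p under 0.05 in edgeR, 10 of 31 mitochondrial genes were called with the block, against 1 without it.

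Within the libraries with mt-Rnr1 under 100 CPM the median over members became -0.11, and the sign of the log2 fold change reversed for mt-Tl1 (-0.14), mt-Nd1 (-0.12), mt-Nd2 (-0.29), mt-Ty (-0.25), mt-Co1 (-0.070), mt-Atp6 (-0.012), mt-Nd3 (-0.022), mt-Nd4 (-0.080), mt-Tl2 (0.0073), mt-Nd5 (-0.22), mt-Te (-0.52), mt-Cytb (-0.11), mt-Tp (-0.31) and the circRNA call at 10689 to 10916 (0.44). Within those of 100 CPM or more it reversed for mt-Rnr1 (-0.32), mt-Rnr2 (-0.034), mt-Tl1 (-0.039), mt-Nd3 (-0.20), mt-Nd4l (-0.12) and the calls at 1703 to 1801 (0.74) and 1710 to 1808 (0.65). These circRNA fits, that with equal junctions counted once, and the counts without features that passed the filter only through the libraries rich in mt-Rnr1 were added after seeing the data. Signs also changed when single libraries were left out, over ranges of -0.11 to 0.49 for mt-Co3, -0.36 to 0.22 for mt-Th, -0.088 to 0.43 for mt-Tl1, -0.13 to 0.40 for mt-Ty, -0.034 to 0.23 for mt-Co1, -0.068 to 0.52 for mt-Nd3, -0.026 to 0.43 for mt-Nd4l, -0.58 to 6.74 for mt-Rnr1 and -0.42 to 0.045 for mt-Tl2. Among circRNA calls the ranges were -0.62 to 0.50 (1692 to 1883), -0.55 to 2.03 (4425 to 4571), -2.40 to 0.26 (10689 to 10916), -1.01 to 0.27 (1703 to 1801) and -1.02 to 0.11 (1710 to 1808). None of these values passed the threshold, and the causes were not tested. The share difference of 1.20 points was 0.801 without the rRNAs and 1.30 over nuclear reads. Depth limits the tRNAs and circRNA calls most, with 3 calls at a mean of 20 reads or more, among them the pair in mt-Rnr2 that shares a junction.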
